A study of Mus musculus with 3 samples.

Results

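The peaks described here lie in the neighbourhoods of 4 genes of the NODAL signalling pathway: Nodal, Tdgf1, Lefty1 and Lefty2. They come from a list of 5189 sites at which FLAG-tagged Tex10 was mapped on chromatin of mouse embryonic stem (ES) cells, and 14 of the 5189 fall here. A peak was taken when it shared at least 1 base with one of 3 windows of the mm9 mouse genome: chr10:60830000-60940000 for Nodal, chr9:110790000-110900000 for Tdgf1, and chr1:182775000-182920000 for Lefty1 and Lefty2 together. The windows were chosen by gene, with the positions and scores of peaks of this list in view, so that they hold peaks is not a finding, and positions, widths and scores are given as descriptions without a test.

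The study used the J1 line of mouse ES cells (strain 129SV), grown on gelatin with serum and leukaemia inhibitory factor. The cells, called T10F10, carried an added Tex10 transgene with a 3xFlag epitope tag, delivered on piggyBac transposon vectors, and the same cells gave all 3 libraries: an immunoprecipitation with an antibody against FLAG, one with mouse IgG as a control, and input DNA. The list comes from the FLAG library, of which there was 1, so no value has a replicate error, and the read depth behind a peak is unknown. Neither the IgG nor the input library was analysed here, so no peak was set against a control. The promoter of the transgene and whether the cells were 1 clone are not given in the sources used here, and a peak list carries no expression, so the ES cell label was not checked against marker genes.

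NODAL is a secreted signal of the transforming growth factor beta family. With its co-receptor TDGF1, also called Cripto, it engages activin receptors on the cell surface, and the signal is carried to the nucleus by SMAD2 and SMAD3 with SMAD4, often on DNA sites bound by FOXH1. LEFTY1 and LEFTY2 are secreted inhibitors that are switched on by the pathway itself and close a negative feedback loop. Nodal, Tdgf1, Lefty1 and Lefty2 are all known to be expressed in cultured mouse ES cells, and in the embryo the pathway forms mesoderm and endoderm and sets the left-right axis.

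Promoter sequences show what the DNA next to the member genes looks like. They were available here for Tdgf1 and Nodal, from RefSeq on the GRCm38.p6 build. Each line gives the 250 bases before the annotated start of the gene, read 5′ to 3′ on the strand of the gene. Capitals mark matches, on either strand, to any of 6 short motifs.
Tdgf1 promoter (GRCm38.p6, chr9:110946159-110946408, minus strand): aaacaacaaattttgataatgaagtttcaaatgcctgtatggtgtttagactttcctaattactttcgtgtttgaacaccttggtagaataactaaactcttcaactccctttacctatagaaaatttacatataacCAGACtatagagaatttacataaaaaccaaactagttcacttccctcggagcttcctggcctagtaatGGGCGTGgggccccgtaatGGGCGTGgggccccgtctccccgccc
Nodal promoter (GRCm38.p6, chr10:61417722-61417971, plus strand): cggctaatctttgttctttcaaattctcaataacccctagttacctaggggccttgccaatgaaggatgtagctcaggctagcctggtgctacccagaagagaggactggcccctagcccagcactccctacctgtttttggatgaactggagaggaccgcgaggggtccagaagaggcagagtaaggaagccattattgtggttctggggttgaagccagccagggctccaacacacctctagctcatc

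The motifs were short forms of sites for factors of the pathway or of ES cells, and were chosen after these promoters had been seen. Each was searched as a fixed run of letters, so other forms of a site, including those of KLF and SP factors, are not marked. GGGCGTG, a core of the sites of KLF and SP factors, matched the Tdgf1 promoter at 2 places, beginning 45 and 26 bases before the start. Of 32851 promoter sequences in the table, 7.55% held these letters on either strand and 1.21% held them at least 2 times. Both matches belong to a unit of 19 bases, gtaatgggcgtggggcccc, that is repeated head to tail in a run of 40 bases. CAGAC, the letters of a SMAD box, matched the Tdgf1 promoter once, 113 bases before the start, and 42.2% of all promoters held it. AATCCAC (FOXH1, 2.10% of promoters), CATTGTT (SOX, 3.29%), ATGCAAA (the octamer, 4.13%) and AAGGTCA (ESRRB, 4.08%) were in neither promoter, and the Nodal promoter matched none of the 6. Because the peaks are on mm9, whether a peak covers either promoter was not determined.

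Nodal, the gene of the ligand, had 3 peaks in its window, and they lay side by side within 2.92 kb. The first, chr10:60878361-60879139, was 779 bp wide and scored 7.18. The score is the number the authors deposited for each peak, which ranks peaks within the list but has no stated scale. The second, chr10:60879374-60879670, began 234 bp after the first, was 297 bp wide and scored 3.38. The third, chr10:60881032-60881280, followed after 1361 bp, was 249 bp wide and scored 3.96. Thus the broad first peak stood above both of its neighbours, which were below the list's median score of 5.22.

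The first Nodal peak was wider than 97.9% of all peaks, while its score ranked 1471 in the list and 66 among the 260 peaks of chromosome 10. The other two ranked 4247 and 3717 in the list. The nearest peaks outside the window lay 99.9 kb before the group (score 7.34) and 230 kb after it (score 3.52). The one before scored slightly higher than any of the Nodal peaks and lay 51.5 kb outside the window. In the GRCm38.p6 annotation Nodal sits between the protein-coding genes Pald1 and Eif4ebp2. Eif4ebp2 encodes a binding protein of the translation initiation factor eIF4E. The pseudogene Rpl27a-ps1 is listed on the same side of Nodal as Pald1. The peaks were not assigned to one of these genes.

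Tdgf1, the gene of the co-receptor, had 8 peaks in its window, the most of the 3 windows. All 8 lay within 14.97 kb, chr9:110848091-110863061, although the window is 110 kb long. They began with 4 closely spaced peaks. The first of these, chr9:110848091-110848314, had the narrowest width in the list, 224 bp, which 11.7% of all peaks share, and scored 4.45. The next, chr9:110849032-110849420, scored 6.42 over 389 bp. It was followed by the widest peak of the group, chr9:110849581-110850222, with a score of 9.91 over 642 bp. The fourth, chr9:110850416-110850933, was 518 bp wide and had the highest score of the window, 10.6. Each of these 4 peaks thus scored higher than the one before it. They span 2.84 kb, of which 62.4% was inside a peak.

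A gap of 3.05 kb separated these from 3 weaker peaks in the Tdgf1 window. The first, chr9:110853984-110854233, scored 4.44. Next came chr9:110855400-110855694, with a score of 4.16. The last of the 3, chr9:110856467-110856789, scored 2.69, the lowest of all 14 peaks. Together they spanned 2.81 kb, of which 30.9% was inside a peak, and each scored below the list's median. The eighth peak, chr9:110862823-110863061, stood apart by 6.03 kb and scored 6.80 over 239 bp.

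The Tdgf1 peaks had a large empty flank on either side. The nearest peak before them lay 413 kb away (score 3.25) and the nearest after them 2505 kb away (score 3.75). In the GRCm38.p6 annotation the closest genes to Tdgf1 are Fam240a and Als2cl on one side and Lrrc2 and Rtp3 on the other. The same annotation lists 2 pseudogenes of Tdgf1, Tdgf1-ps1 on chromosome 16 and Tdgf1-ps2 on chromosome 17. How reads shared with such copies were placed is not stated, and their part in the peaks near Tdgf1 was not tested.

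Lefty1 and Lefty2, the genes of the secreted inhibitors, are neighbours on chromosome 1 and share a window, which held 3 peaks. In contrast to the other two windows, these peaks were not grouped and lay over 129 kb. The gap to the nearest peak of the list was 36.5, 37.4 and 91.0 kb for them. Its median over the 5187 peaks of the autosomes, X and Y was 51.7 kb, so such spacing was not unusual for the list. The strongest, chr1:182818729-182819127, was 399 bp wide and scored 10.6, the highest of all 14 by a small margin (10.613 against 10.607 for the strongest Tdgf1 peak). It ranked 36 among the 332 peaks of chromosome 1. A peak at chr1:182780935-182781311, 37.4 kb before it, scored 4.98 over 377 bp. The third, chr1:182910084-182910381, lay 91.0 kb after it and scored 2.96 over 298 bp. Only the middle peak was above the list's median score.

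The nearest peaks beyond the Lefty window lay 36.5 kb before its first peak (score 3.45) and 171 kb after its last (score 3.18). The former lay 30.6 kb outside the window, so that the spacing of single peaks went on across its edge. In the GRCm38.p6 annotation Tmem63a and Ephx1 lie beyond Lefty1 on the side away from Lefty2, and the noncoding gene Gm39715 overlaps Lefty1. Which of the genes is closest to each peak was not determined on mm9.

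**Figure D1:**
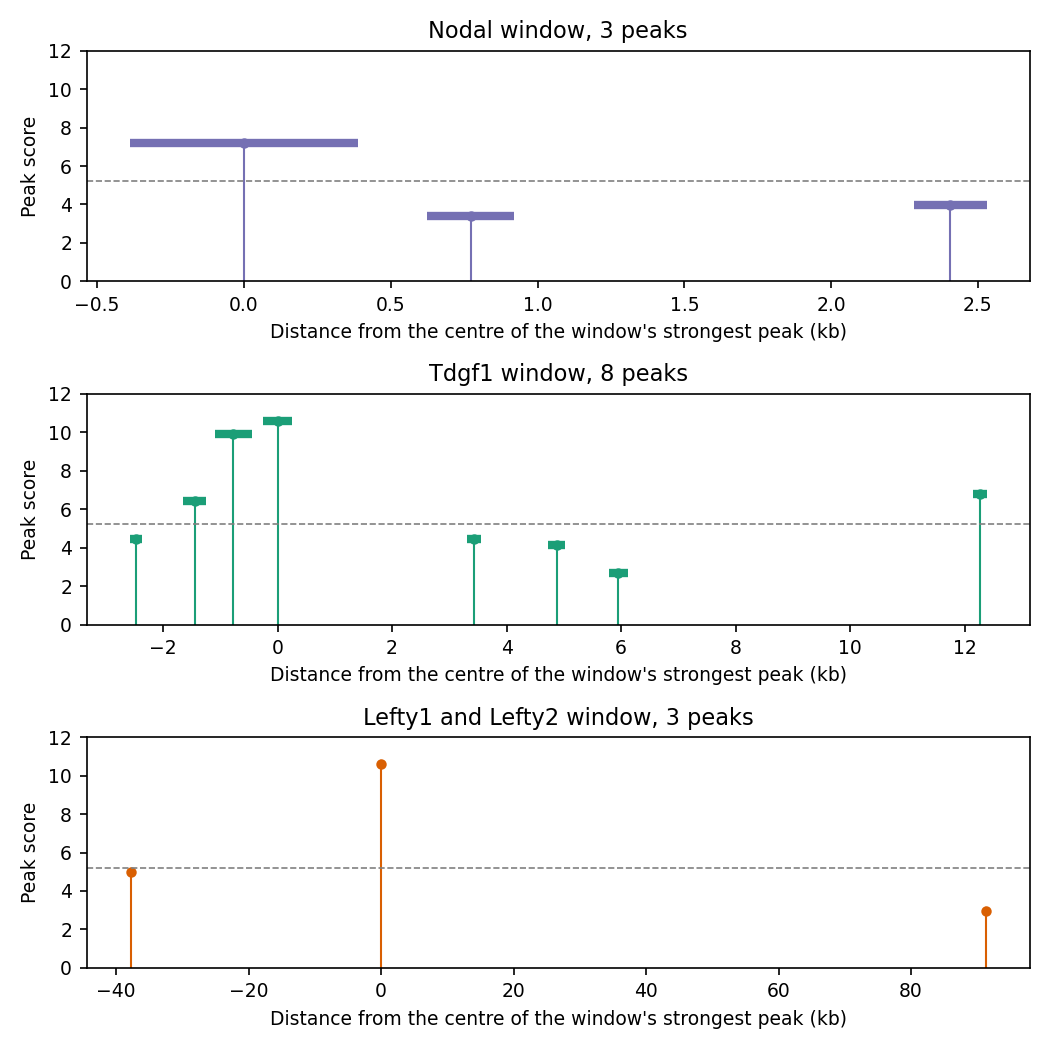
Score of each peak (vertical axis, no unit) against the distance of its centre from the centre of the strongest peak in the same window (horizontal axis, kb), for Nodal, Tdgf1, and Lefty1 and Lefty2. Horizontal bars show the peak's width and the dashed line the list's median score of 5.22. The distance axes differ: the Nodal group spans 2.92 kb, the Tdgf1 group 14.97 kb and the Lefty peaks 129 kb.

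The scores of the 14 peaks were not high for this list. Their median was 4.71, against 5.22 over all 5189 peaks, and 6 of the 14 were at or above the list's median, where 50% of all peaks are by definition. A score of at least 10 was reached by 2 of the 14, one near Tdgf1 and one near Lefty1 and Lefty2, which is near the 14.5% of all peaks that reach it. No peak near Nodal did. In the list 687 peaks (13.2%) scored above the strongest of the 14, and the highest score of all was 432. By width the 14 peaks were also ordinary, with a median of 310.5 bp against 314 bp, although the broad peaks near Nodal (779 bp) and Tdgf1 (642 and 518 bp) were wider than 97.9%, 95.4% and 89.6% of the list.

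Several of the weaker peaks carried scores that recur in the list. The score of 4.45 near Tdgf1 was shared by 46 peaks and that of 4.44 by 43. Scores found in at least 40 peaks made up 17.1% of the list, and 2 of the 14 had one, which is near that share. The strongest Lefty peak and the outlying Tdgf1 peak had scores found in no other peak. How common such scores are in the list was not counted, so nothing is read from this. The strongest Tdgf1 peak shared its score with 2 others, a total of 3.

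**Figure D2:**
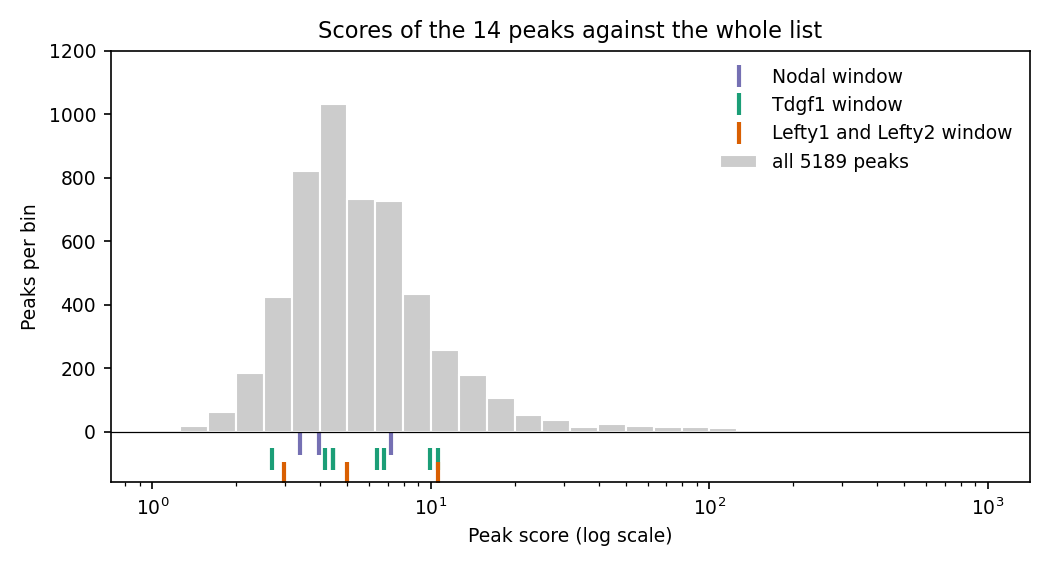
Number of peaks per bin of score (grey bars, all 5189 peaks; score on a log axis, no unit), with 1 tick below the axis for each of the 14 peaks, in a row for each window. The ticks run from 2.69 to 10.6, around the list's median of 5.22 and short of its upper tail.

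The number of peaks in each window was set beside the rest of the genome. When the 19 autosomes were laid out in consecutive tiles of 110 kb, 15.8% of 22465 tiles held at least 1 peak, 1.56% held at least 3, as many as the Nodal window, and 0.0401% (9 tiles) held at least 8, as many as the Tdgf1 window. That last share rests on few tiles: it was 0.0223% (5 tiles) with tiles that start at the middle of the first tile, and 0.177% (2 of 1127 tiles) on chromosome 9 alone. Of 17042 tiles of 145 kb, the length of the Lefty window, 19.6% held at least 1 peak and 2.39% at least 3. The windows were placed around known peaks and the tiles were not, so these shares are a scale for the counts and not a test.

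Joining peaks less than 12500 bp apart gave 4274 stretches and single peaks in the list, without the mitochondrial genome. Both Nodal and Tdgf1 had 1 stretch, and the 3 Lefty peaks stayed single. Thus 11 of the 14 peaks lay in stretches of at least 3, against 11.6% of the list, and 8 of these 11 were the Tdgf1 peaks. Stretches of at least 3 peaks made up 3.77% of the 4274, or 161. Those of at least 8 made up 0.164%, or 7, and the Tdgf1 stretch was one of them. Since these counts use the same positions as the windows, nothing is read from them beyond rank.

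Among the 7 stretches of at least 8 peaks, that of Tdgf1 was the shortest, at 14.97 kb, nearly equal to a stretch of 14.99 kb on chromosome Y that also held 8. It was one of 4 on autosomes, with stretches on chromosomes 7 (8 peaks), 8 (10 peaks) and 9 (19 peaks). Those on chromosomes 7 and 9 lie near the start of the chromosome, with no peak of the list before them. The highest score of the Tdgf1 stretch, 10.6, was the lowest of the highest scores of the 7, whose median was 19.7. Peaks covered 19.2% of its length, which was also the median of the 7. Over the 161 the median was 15.6%, and the Tdgf1 stretch ranked 67 by this share. Of 156 stretches of at least 3 with a peak on either side, it ranked 11 by the distance to the nearer outside peak.

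The Nodal stretch was small and compact. Its length of 2.92 kb ranked 140 of 161 and compares with a median of 8.89 kb. Peaks covered 45.4% of it, rank 23 of 161. Its highest score ranked 102 of 161, and that of Tdgf1 ranked 60. Among the 108 stretches of exactly 3 peaks the median of the highest score was 7.33, close to the 7.18 of the Nodal stretch.

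**Figure D3:**
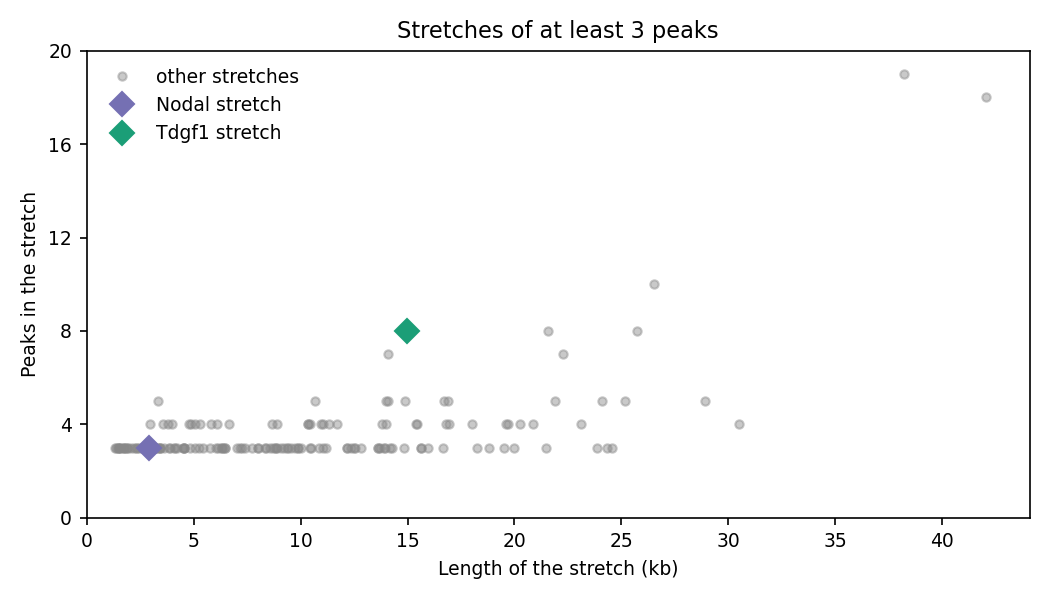
Number of peaks (vertical axis) against length (horizontal axis, kb) of each of the 161 stretches of at least 3 peaks. Grey points are single stretches; the diamonds mark Nodal (3 peaks, 2.92 kb) and Tdgf1 (8 peaks, 14.97 kb), the latter covering the point of a chromosome Y stretch of 14.99 kb with the same number.

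Some neighbours in the Tdgf1 and Nodal groups were close enough to be read as 1 broader region. Peaks less than 500 bp apart, when joined, turned the Tdgf1 peaks scoring 6.42, 9.91 and 10.6 into 1 region of 1902 bp, chr9:110849032-110850933, and the first 2 of Nodal into 1 region of 1310 bp, chr10:60878361-60879670. Tdgf1 then had 6 regions, Nodal 2, and the Lefty window 3 as before. Under a stricter threshold, the list's upper quartile of scores (7.73), 3 of the 14 peaks remained. They were the strongest 2 of Tdgf1 and the middle one of Lefty1 and Lefty2, with none near Nodal. A count of 3 among 14 is near the share of all peaks that an upper quartile holds by definition.

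Other genes of the pathway were not located, as no mm9 gene annotation was used here. They include the ligands Gdf1, Gdf3 and Inhba, the receptors Acvr1b, Acvr1c, Acvr2a and Acvr2b, the signal carriers Smad2, Smad3, Smad4 and Foxh1, the inhibitors Cer1, Dand5 and Smad7, the convertases Furin and Pcsk6, and the targets Eomes, T, Gsc, Mixl1 and Foxa2. Whether the peaks near Nodal, Tdgf1, Lefty1 and Lefty2 differ from those near these genes was not tested.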

How the data were processed

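The deposited file lists peaks of 1 FLAG library, with a position, a name and a score per peak. The score is as the authors deposited it. Its scale, the peak caller and the control are not given in the sources used here. Scores therefore served only to rank and filter peaks within the list. The genome build, mm9, and the tools are known per the submitters' processing notes, which name bedtools 2.18.1, SAMtools 0.1.19, Bowtie 1.0.0 and FastQC 0.10.1 without saying what each did. Starts are given 1-based.

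Peaks were assigned to windows by at least 1 shared base. Stretches join peaks less than 12500 bp apart. Tiles were laid from base 1 of each autosome with mm9 lengths from GenomeInfoDb 1.38.1 (R 4.3.3), with assembly gaps left in. Groups inside the Tdgf1 stretch use 2 kb, chosen after the values were seen. Python 3.11.15, numpy 2.4.6, pandas 2.3.3, scipy 1.17.1 and matplotlib 3.10.9 were used, and the counting was tested on simulated peaks. No test was run: with 1 library there is no replicate error, and the windows, gene list and settings were chosen with earlier results of these data known. The named genes are the 4 members, their nearest 2 annotated neighbours on each side, of which those that help place a member are given, and a list of other pathway genes. Depth per sample is unknown, since the file holds no counts. Sequences and gene neighbours come from RefSeq on GRCm38.p6, whose coordinates were not compared with peaks.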

Additional observations from a re-analysis of the deposited data

How the results depend on the processing

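The number of peaks stayed within 1.5 times its value when the centre of a peak had to lie in the window, when peaks less than 500 bp apart were joined (11 in all), and when windows were extended by 50 kb on each side (15 in all, the added peak being before the Lefty window). It depended on the score threshold. With only peaks at or above the list's median score the windows held 1 (Lefty1 and Lefty2), 4 (Tdgf1) and 1 (Nodal), 6 in all. By definition 50% of all peaks are at or above that median. At or above the upper quartile the windows held 1, 2 and 0, 3 in all, near the share of the list that an upper quartile holds by definition. Fewer peaks follow from the stricter threshold itself. Both Tdgf1 and Nodal kept 1 stretch each when peaks less than 5 kb or 25 kb apart were joined. At 5 kb the Tdgf1 stretch held 7 peaks, and 4 stretches in the list, itself included, held as many or more. The share of tiles with at least as many peaks, taken on the window's own chromosome only, was 1.77% for Lefty1 and Lefty2, 0.177% for Tdgf1 and 1.19% for Nodal; for tiles that start at the middle of the first tile it was 2.49%, 0.0223% and 1.60%. No paired analysis was possible because the labels give no replicate numbers and every group is a lone library. The list's depth limits what it can hold, since sites below its threshold are not in it.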
